A study of Pan troglodytes with 38 samples.

Results

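Interferon-stimulated genes were followed in post-mortem heart RNA from 38 chimpanzees (Pan troglodytes). The members were 42 genes chosen by symbol from the classical responders to interferon. A row of the chimpanzee gene count table was matched to a member when its Ensembl identifier carried that symbol. This found 40 members among 31373 genes, of which 18040 have a symbol. MX1 and SAMD9L had no matching row and were not analysed here. All 40 members passed the filter on low counts, together with 14102 other genes.

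Interferons are secreted proteins that warn cells of viral infection. Type I interferons bind a receptor whose kinases JAK1 and TYK2 activate transcription factors, among them STAT2 and IRF9, that switch on the stimulated genes, while type II interferon (interferon gamma) binds a receptor of its own with the kinases JAK1 and JAK2. The induced proteins block the entry of viruses, bind or cut viral RNA, modify proteins, or amplify the signal. Cells of the heart, among them cardiomyocytes, endothelial cells, fibroblasts and resident leukocytes, carry interferon receptors and can express these genes.

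The study collected heart tissue from chimpanzees to measure how much gene expression varies between individuals. GEO's labels give the animals as 1 group, so year of RNA extraction, sex, age, primate center and virus notes came from the sample table of the study. RNA of 21 animals was extracted on 1 date in 2018, and RNA of 17 animals about 2 years before, in what is called the earlier extraction here. The animals carried no stated genetic change. The study states that some came from laboratories and had been challenged with hepatitis B or C virus. No treatment beyond such exposures was stated. They were 22 females and 16 males aged 10 to 57 years, with an age known for 34.

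Of the animals of the earlier extraction, 9 came from Yerkes (6 females and 3 males, 19 to 55 years), 5 from SNPRC (3 females and 2 males, 10 to 53 years) and 3 from other centers (1 female and 2 males, 35 to 36 years). No virus note was given for these 17. In the 2018 extraction, 13 animals had no note (7 females and 6 males, 15 to 57 years, age known for 9), of which 12 came from Yerkes and Little_R came from Little Rock Zoo. The 7 animals with a positive note all came from SNPRC (4 females and 3 males, 21 to 49 years). Of these, 2 were positive for hepatitis B virus (HBV), 4 for hepatitis C virus (HCV) and 1, 4X0333, for both. A further SNPRC female of 23 years, 4X0357, had been exposed to HIV and tested negative, and was left out of the comparisons by virus note and center. A note records the status of an animal, not virus in its heart. Virus note and center cannot be told apart in 2018. Year may not be separable from new against resequenced libraries. The study does not give the same numbers of these libraries throughout.

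Total counts ran from 43892814 to 132478050 and 63639042 in the median animal, the RNA integrity number (RIN) was between 2.5 and 8.4, and the 13 mitochondrially encoded genes held 17.2% to 60.1% of the counts. All 10 cardiomyocyte markers were found in every animal, with MYH7, the slow myosin heavy chain, between 341.7 and 36340 CPM (counts scaled to library size). Markers of other tissues were near 0, with medians of 0.094 CPM for ALB of liver and 0.044 CPM for INS of pancreas. Little_R and 537 had the lowest summed cardiomyocyte level (-2.24 and -1.87, the mean of its genes in SD units), against a median of 0.27. In such bulk tissue, fewer cells of a type and less RNA per cell cannot be told apart. No pair of libraries was identical, and the highest correlation between libraries was 0.981.

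The members rose and fell together from animal to animal, and a few hearts stood far above the rest. The shared level of an animal is the mean over the 40 members of log2 CPM after each gene was set to mean 0 and SD 1. It was highest in 462, a Yerkes animal of the earlier extraction, at 2.23. The next were 4X0354, an HCV-positive animal, at 1.7, and the other Yerkes animals 558 at 1.56, 537 at 1.37 and 570 at 1.14. At the other end were 554 at -0.98, HBV- and HCV-positive 4X0333 at -0.94 and HBV-positive 4X0339 at -0.94. Animals with a virus note thus stood at both ends of the order.

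**Figure D1:**
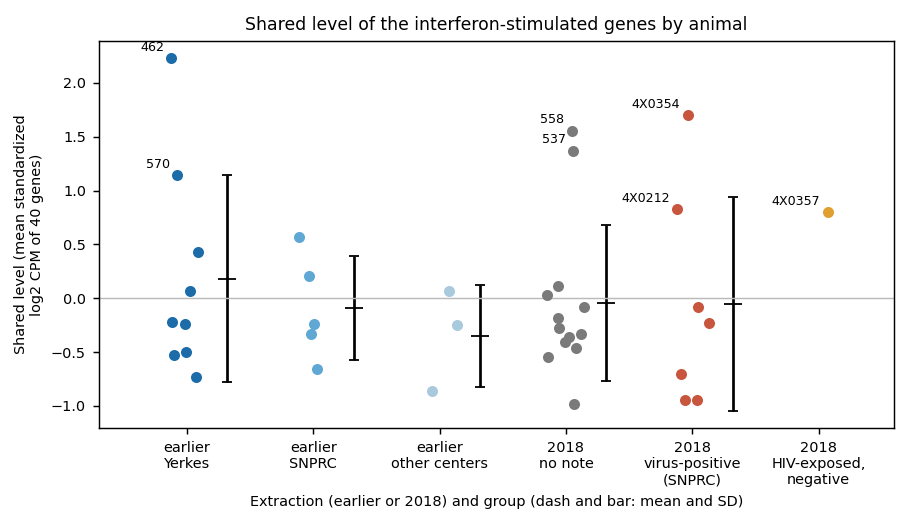
Shared level of the 40 interferon-stimulated genes (mean of standardized log2 CPM, SD units) for each animal by group of extraction, center and virus note. Single animals stand above the others of their group, with 462 at 2.23, 4X0354 at 1.7 and 558 at 1.56, and the groups overlap.

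The high animals were high for most members. In 462, 34 of 40 members were above 2 times their median over the animals, with a median ratio of 4.27, and 20 members had their highest value there. In 4X0354 this held for 33 members (median ratio 3.48), in 558 for 33 (3.17), in 537 for 27 (2.52) and in 570 for 27 (2.36). The highest value of a member fell in 537 for 7 members, in 4X0354 for 7, in Little_R for 4, in 558 for OAS3 and in 338 for IFIT5. Scaling by total count in place of TMM kept 462, 570, 4X0354 and 558 as the 4 highest animals, and 4X0212 then took the place of 537 among the first 5.

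**Figure D2:**
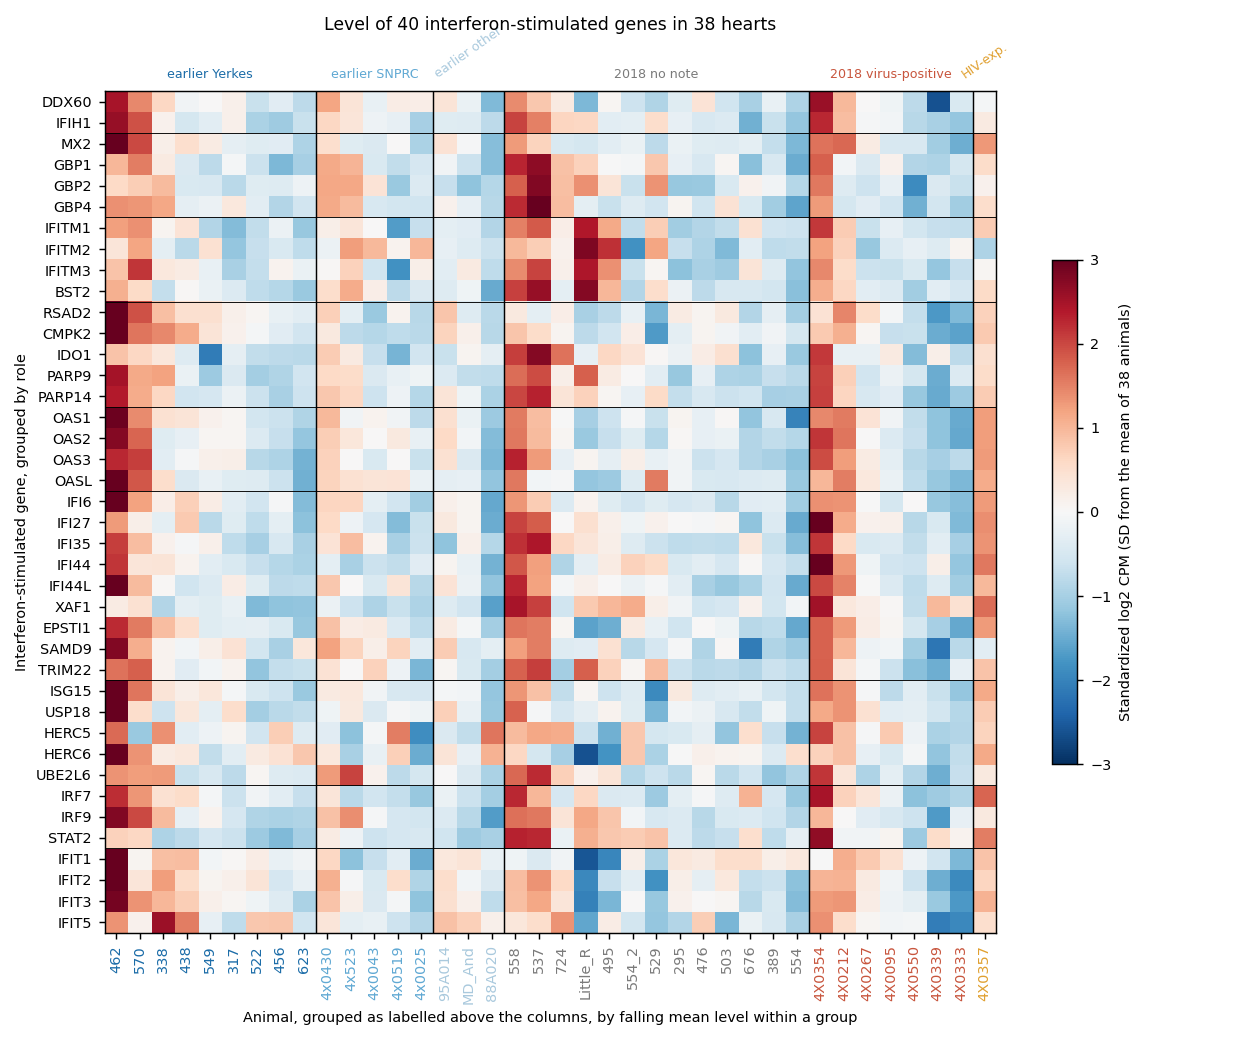
Log2 CPM of each of the 40 members (rows, by role) in each of the 38 animals (columns, by group), each gene standardized to mean 0 and SD 1 and drawn on a colour scale from -3 to 3 SD. Columns such as 462, 4X0354, 558 and 537 are high for most rows, while Little_R is high for the IFITM genes and BST2 and low for IFIT1, IFIT3 and HERC6.

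Neither the quality of the RNA nor age followed the shared level closely. Over 38 animals Pearson's r of the shared level was 0.02 with RIN (Spearman's rho -0.04) and 0.24 with the mitochondrial share of counts (rho 0.04). With age it was -0.10 over 34 animals (rho -0.12). The mitochondrial share of the 5 highest animals was 29.5% in 462, 42.99% in 4X0354, 53.9% in 558, 60.1% in 537 and 23.9% in 570, against a median of 30.4%. Their part in the shared level was not tested.

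Among the modifiers, ISG15 is a ubiquitin-like protein that is attached to other proteins or secreted, UBE2L6 and HERC5 help to attach it, and USP18 removes it and dampens the receptor. ISG15 had a median of 2.19 CPM and ran from 0.159 CPM in 529 to 58.6 CPM in 462, the widest range of any member as a ratio of highest to median (26.8). The next values of ISG15 were 10.8 CPM in 4X0354 and 10.6 CPM in 570, so that 462 stood alone. USP18 was highest in 462 at 13.2 CPM against a median of 1.27 CPM. HERC5 was among the steadiest members, between 2.49 and 9.34 CPM, whereas HERC6, a related ligase, ran from 0.621 CPM in Little_R to 46.6 CPM in 462. UBE2L6 ran from 10.6 to 72.9 CPM, highest in 537.

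The IFIT proteins bind foreign viral RNA. IFIT1 had a median of 45.8 CPM, was lowest in Little_R at 6.56 CPM and highest in 462 at 576.9 CPM, where it was 12.6 times the median. The second value, 96.8 CPM in HCV-positive 4X0212, was far below that of 462. IFIT2 and IFIT3 were also lowest in Little_R and highest in 462, between 2.69 and 53.4 CPM and between 2.83 and 161.9 CPM. IFIT5 kept between 13.02 and 37.4 CPM, and no animal reached 2 times its median. The IFIT genes are near copies of each other, as are the IFITM and the GBP genes, so reads shared between copies could be split or lost in counting.

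The oligoadenylate synthetases make the messenger that activates the RNA-cutting enzyme RNase L. OAS1 was between 4.35 CPM in 554 and 139.5 CPM in 462 (median 17.7), with 54.4 CPM in 4X0212, 54.2 CPM in 558 and 50.03 CPM in 4X0354. OAS2 (2.29 to 52.7 CPM) and OASL (0.145 to 11.9 CPM) were highest in 462, and OAS3 (4.16 to 66.1 CPM) was highest in 558. OAS1 was high in the animals of high shared level and low in the others. The RNA-sensing helicases IFIH1 (3.77 to 40.2 CPM) and DDX60 (1.45 to 22.2 CPM) were highest in 462 and 4X0354, respectively.

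MX2 is a dynamin-like GTPase that restricts retroviruses and herpesviruses, and the GBP proteins are GTPases that attack the vacuoles and membranes of pathogens. MX2 was between 10.4 and 242.1 CPM with its highest value in 462. GBP1 (3.69 to 109.9 CPM), GBP2 (3.86 to 130.7 CPM) and GBP4 (6.14 to 171.4 CPM) were all highest in 537. In 462, GBP1 was at 28.6 CPM, above its median of 11.3 CPM but below 4X0354, 558, 570 and 537. The animals thus differed in which members were highest.

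Among the enzymes, IDO1 degrades tryptophan and, as background, responds strongly to interferon gamma, as the GBP genes do. IDO1 was between 9.88 CPM in 549 and 750.5 CPM in 537 (median 55.2), followed by 432.4 CPM in 4X0354 and 414.2 CPM in 558, with 139.0 CPM in 462. RSAD2 makes a nucleotide that stops viral polymerases and CMPK2 is its neighbouring nucleotide kinase. Both were highest in 462, RSAD2 between 0.295 and 33.4 CPM and CMPK2 between 1.65 and 58.6 CPM. PARP9 (8.21 to 90.1 CPM) and PARP14 (7.03 to 56.3 CPM), which take part in ADP-ribosylation, were highest in 462 too.

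The membrane proteins gave a pattern of their own. IFITM1, IFITM2 and IFITM3 hinder the fusion of viruses with the cell and BST2 (tetherin) holds new virus particles at its surface. All 4 were highest in Little_R, at 301.4, 177.0, 294.3 and 269.1 CPM, against medians of 64.0, 27.7, 76.6 and 38.7 CPM. The same animal had the lowest values of IFIT1, IFIT2, IFIT3, HERC6 and EPSTI1. For BST2 the second value was close, 247.4 CPM in 537. These 2 hearts also had the lowest cardiomyocyte level, and the part of that level was not tested.

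Among the other effectors, IFI6 and IFI27 are small proteins that act on cell death and on viral replication. IFI6 was between 13.4 and 719.7 CPM (462). IFI27 was between 14.4 CPM in 554 and 218.1 CPM in 4X0354 (median 35.9), followed by 120.5 CPM in 558. IFI44L, described as a feedback regulator of the response, was between 2.74 CPM in 554 and 43.03 CPM in 462 (median 6.40), with 27.6 CPM in 558 and 23.1 CPM in 4X0354. IFI44 (3.45 to 52.8 CPM) was highest in 4X0354, IFI35 (5.26 to 40.6 CPM) in 537, and SAMD9 (0.429 to 8.47 CPM) and EPSTI1 (0.898 to 19.1 CPM) in 462. TRIM22, a ubiquitin ligase, reached 135.2 CPM in 537.

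XAF1, which promotes cell death, ran from 8.74 CPM in 88A020 to 428.0 CPM in 4X0354. The factors that carry the signal varied over narrower ranges. STAT2 ran from 12.9 to 109.2 CPM and IRF7 from 7.603 to 36.8 CPM, both highest in 4X0354, and IRF9 ran from 7.03 to 60.6 CPM, highest in 462. IRF7 and IRF9 followed the mean of the other members with r = 0.87 and 0.85 over 38 animals, and STAT2 less closely with 0.65.

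The correlation of members over the animals was taken on log2 CPM as a description, since all values of an animal share 1 library. Over 780 pairs of members the median Pearson's r was 0.65 (38 animals), and 759 pairs were above 0, whereas the median of r between pairs of genes over all genes was 0.00. The median was 0.73 among the 17 animals of the earlier extraction and 0.67 among the 21 of 2018. Without 462 it was 0.61, and without 462, 4X0354, 558 and 537 it was 0.48, with 716 of 780 pairs above 0. These 4 animals are the highest on the mean of the same members. Leaving them out narrows the range and by itself lowers r, so the fall does not measure how far the other animals share the pattern.

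The members that followed the rest most closely were PARP14 (r = 0.94 with the mean of the other members), OAS3 (0.94), IFI44L (0.93) and IFIH1 (0.93). Within roles, the median r was highest among the oligoadenylate synthetases (0.87) and the RNA helicases (0.78) and lowest among the modifiers (0.49). The closest pairs were MX2 with OAS1 (0.95), XAF1 with STAT2 (0.94) and IFIT2 with IFIT3 (0.94).

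The members that followed the rest least were IFITM2 (r = 0.34), IFIT1 (0.39), HERC6 (0.41), HERC5 (0.47) and IFIT5 (0.52). IFIT1 and IFITM2 ran in opposite directions, with the lowest r of any pair (-0.53), whereas IFIT1 and HERC6 had r = 0.81 with each other, and IFITM1 and IFITM3 had 0.91. These genes also differed in their relation to cardiomyocyte genes. With the cardiomyocyte list, r was 0.51 for IFIT1 and 0.46 for HERC6, but -0.76 for IFITM2, -0.70 for IFITM3 and -0.68 for BST2.

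Dispersion was the measure by which the study described variation between individuals. It is the natural logarithm of the overdispersion of a negative binomial model, less the trend of all genes at the same mean expression, so 0 is the level of a typical gene. The members had a median of 1.31 against -0.08 over 14142 genes, and 38 of 40 were above 0, as were 46.4% of all genes. Of the 40 members, 26 lay above the 90th percentile of all genes. This is a description, with no test.

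**Figure D3:**
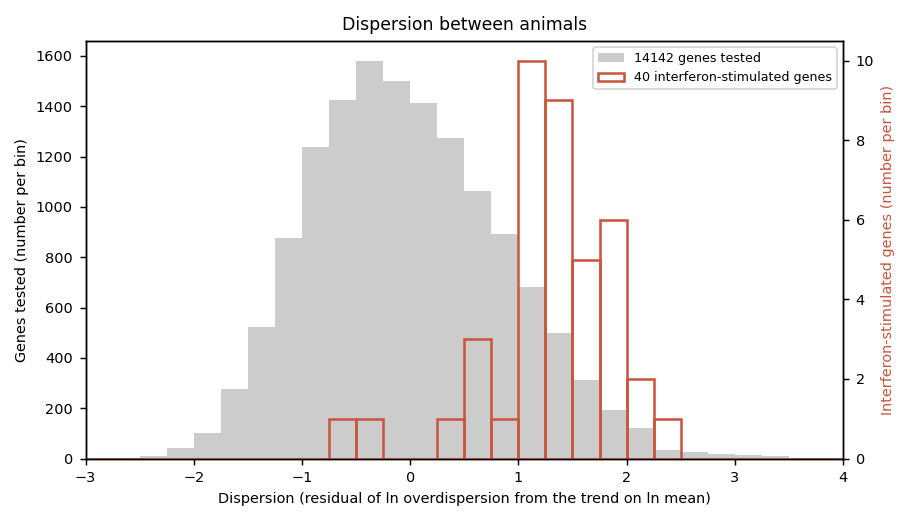
Histogram of dispersion (residual of ln overdispersion from the trend on ln mean expression) for 14142 genes (grey, left axis) and for the 40 interferon-stimulated genes (outlined, right axis). The members lie to the right of the bulk of genes, with a median of 1.31 against -0.08.

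The highest dispersion was that of XAF1 (2.26), followed by IDO1 (2.14), IFI6 (2.04), GBP1 (1.93) and IFIT3 (1.91), and ISG15 was at 1.87. The lowest was that of IFIT5 (-0.68), then HERC5 (-0.39), SAMD9 (0.37), USP18 (0.58) and IRF7 (0.59). IFIT5 and HERC5 were the members below the level of a typical gene over the 38 animals. Without 462 USP18 was below it too, at -0.44, and the values were 1.08 for ISG15, 1.03 for IFIT1 and 1.29 for IFI6, which had been at 2.04. Over the 17 animals of the earlier extraction the median of the members was 1.76 and over the 21 of 2018 it was 1.19. Without 462 the median was 1.08, and without the 4 animals of the highest shared level it was 0.94, with 36 of 40 members above 0.

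The first comparison asked whether hearts of animals with a positive HBV or HCV note differed from those with no note within the single extraction of 2018. No member passed the edgeR test between the 7 positive animals and the 13 others. The intervals of the fitted log2 differences reached down to -2.3043 for GBP4 and up to 1.7855 for ISG15. Large differences in single members were therefore not excluded. The shared level was -0.05 ± 0.99 (SD, n = 7) against -0.04 ± 0.72 (SD, n = 13), and ran from -0.94 to 1.7 and from -0.98 to 1.56. The groups overlapped over nearly the whole range.

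In the 7 positive animals ISG15 was at 10.8 CPM in 4X0354, 8.46 in 4X0212, 2.46 in 4X0267, 1.89 in 4X0550, 1.29 in 4X0339, 1.12 in 4X0095 and 0.712 in 4X0333. In the 13 others its lowest, median and highest values were 0.159, 1.76 and 8.31 CPM. The HCV-positive animals 4X0354 and 4X0212 were above every animal with no note, and the other 5 were within their range. The fitted difference was 0.60 on the log2 scale (SE 0.57, 95% interval -0.58 to 1.79), and it was 0.08 without 4X0354 and 0.92 without 558.

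IFIT1 was between 16.4 and 96.8 CPM in the positive animals (median 43.4) and between 6.56 and 64.3 CPM in the others (median 50), a log2 difference of 0.31 (SE 0.37). OAS1 was between 6.36 and 54.4 CPM (median 17.2) against 4.35 to 54.2 CPM (median 15.7), a difference of 0.43 (SE 0.45). The groups overlapped for both genes, and 4X0212 held the highest value of each. Without 4X0212 the difference was 0.07 for IFIT1 and 0.09 for OAS1.

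IFI44L was between 3.73 and 23.1 CPM (median 5.61) against 2.74 to 27.6 CPM (median 6.42), a log2 difference of 0.27 (SE 0.44), which became -0.12 without 4X0354. IFI27 was between 16.1 and 218.1 CPM (median 38.9) against 14.4 to 120.5 CPM (median 36.5), a log2 difference of 0.43 (SE 0.46), which became -0.36 without 4X0354. The direction of both rested on that animal.

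IDO1 was between 20.4 and 432.4 CPM (median 54.0) against 21.6 to 750.5 CPM (median 79.3), a log2 difference of -0.59 (SE 0.69). GBP4, with 6.82 to 48.5 CPM against 6.14 to 171.4 CPM, had the most negative difference of all members, -1.02 (SE 0.62), and OAS2 the most positive, 0.66 (SE 0.49). The groups overlapped for both, and 537 held the highest value of GBP4 in the group with no note. Without 537 the difference was -0.45 for GBP4 and -0.07 for IDO1. Without 4X0354 it was -1.56 for GBP4, -1.61 for IDO1 and 0.09 for OAS2.

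By edgeR's quasi-likelihood test with Benjamini-Hochberg adjustment, 0 of 40 members passed an adjusted p of 0.05, as did 0 of 15680 genes (0%). At an unadjusted p under 0.05 the counts were 0 of 40 members and 3.42% of all genes. DESeq2 and limma-voom also called 0 members, with 1 and 0 members at an unadjusted p under 0.05. Differences were above 0 for 25 members and below 0 for 15, with a median of 0.13 against -0.02 over all genes. Without 4X0354, 10 of 40 members were above 0 in place of 25, with a median of -0.26. There 4 members had an unadjusted p under 0.05, and the share of all genes at that threshold was not counted. Precision differed between members, with a median SE of 0.44, from 0.16 for IFIT5 (95% interval -0.32 to 0.36) to 0.69 for IDO1 (-2.03 to 0.85). Summed leukocyte levels ran from -1.37 to 0.87 in the positive animals and from -1.12 to 2.07 in the others, and 0 of 12 leukocyte genes passed the test.

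**Figure D4:**
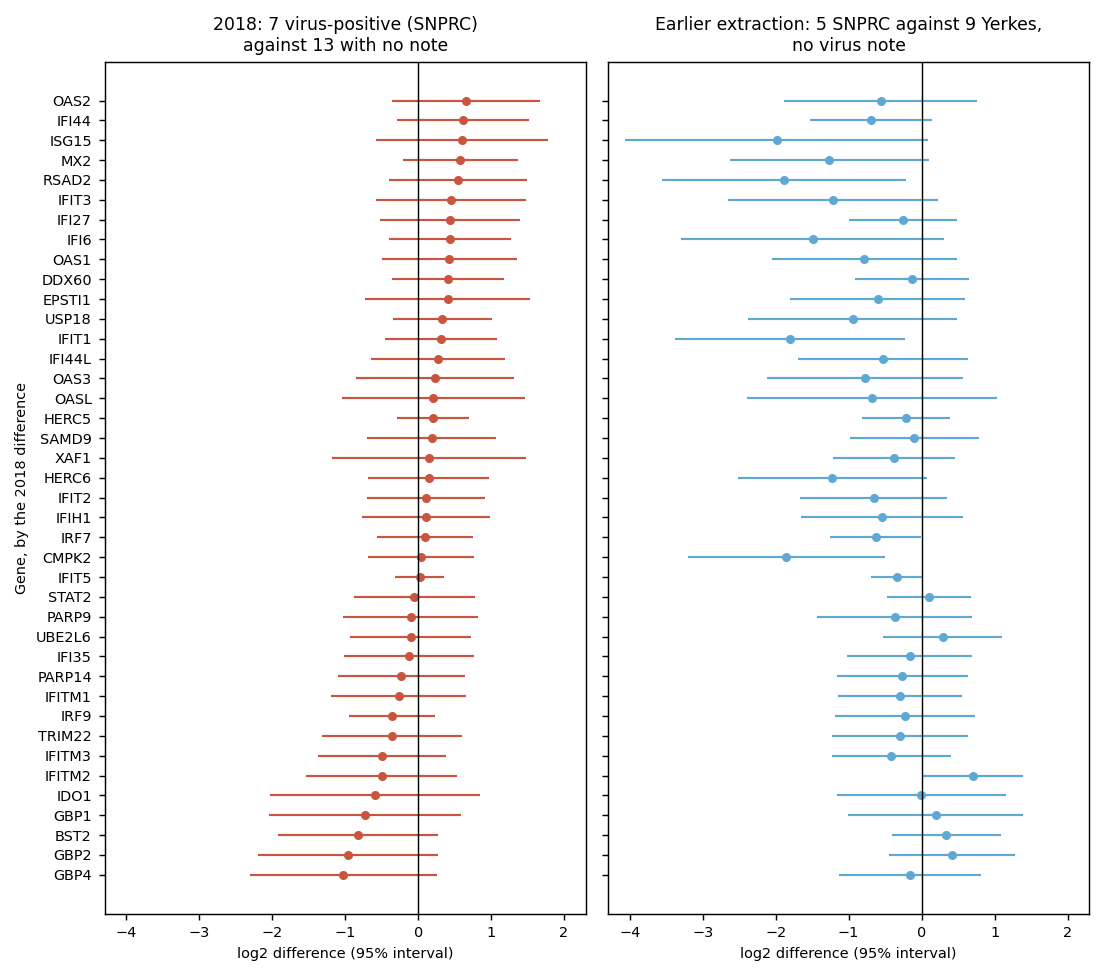
Fitted log2 difference of each of the 40 members with its 95% interval, for virus-positive against no note in 2018 (7 and 13 animals) and for SNPRC against Yerkes in the earlier extraction (5 and 9 animals). In the first contrast the points run from -1.02 for GBP4 to 0.66 for OAS2 and every interval includes 0, and in the second most points are below 0.

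The centers were also compared within the earlier extraction, where no animal had a virus note, because center went with the note in 2018. Most members had a lower fitted level in the 5 SNPRC hearts than in the 9 Yerkes hearts, but none passed the test. ISG15 was at 1.53, 2.295, 3.33, 1.58 and 3.45 CPM in the SNPRC animals 4x0025, 4x0043, 4x0430, 4x0519 and 4x523. In the Yerkes animals its lowest, median and highest values were 0.741, 3.05 and 58.6 CPM. The SNPRC values lay within the range of the Yerkes values.

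By edgeR 0 of 40 members passed, against 1.29% of 15614 genes (202), and 5 members had an unadjusted p under 0.05, as did 15.9% of all genes. Those 5 were CMPK2 (log2 difference -1.85, SE 0.63), RSAD2 (-1.88, SE 0.79), IFIT1 (-1.80, SE 0.74) and IRF7 (-0.63, SE 0.29), which were lower in SNPRC, and IFITM2 (0.70, SE 0.33), which was higher. Limma-voom called 0 members and DESeq2 called CMPK2.

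CMPK2 was at 3.24, 3.14, 6.93, 3.38 and 3.31 CPM in the same order of SNPRC animals, and between 3.87 and 58.6 CPM in Yerkes (median 7.40), so that 4 of 5 SNPRC animals were below every Yerkes animal. The median difference of the members was -0.39 against -0.02 over all genes, and 34 of 40 were below 0. Without 462 the median was -0.08, 18 of 40 members were above 0 and 2 had an unadjusted p under 0.05 (share of all genes not counted). The difference of ISG15 then moved from -1.99 to -0.48, that of IFIT1 to -0.72 and that of CMPK2 to -1.13. Markers of leukocytes moved with this comparison. Of 12 leukocyte genes 6 were higher in SNPRC, as were 6 of 12 genes of T and NK cells, and the leukocyte level was between 0.46 and 2.49 in SNPRC and between -0.99 and 1.15 in Yerkes. Their part in the member values was not tested. These calls rest on few animals, since 0% of all genes passed without any 1 of 317, 438, 456, 462, 4x0043, 4x523 or 623.

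The difference between both contrasts was tested as an interaction of center with year over the 33 Yerkes and SNPRC animals, which leaves out Little_R of the first contrast. By edgeR 0 of 40 members and 0 of 16566 genes (0%) passed. At an unadjusted p under 0.05 were 6 members, against 7.67% of all genes, and all 6 were more positive in 2018, against 2.52% of all genes in that direction. They were ISG15 (2.59 on the log2 scale, SE 1.13), RSAD2 (2.37, SE 0.88), IFIT1 (2.01, SE 0.74), IFI6 (1.92, SE 0.91), CMPK2 (1.84, SE 0.69) and MX2 (1.80, SE 0.75). DESeq2 and limma-voom called 0 members. Without 462 no member had an unadjusted p under 0.05, and the median over the members moved from 0.58 to 0.19.

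Extraction year was compared over all 38 animals with sex as a covariate. XAF1 and STAT2 were higher in 2018 than in the earlier extraction. XAF1 had lowest, median and highest values of 20.5, 49.98 and 428.0 CPM in the 21 animals of 2018 and 8.74, 22.98 and 62.96 CPM in the 17 earlier ones. The log2 difference was 2.005 (SE 0.40, edgeR adjusted p = 0.0005692). The groups overlapped, with 2018 reaching much higher.

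STAT2 was between 14.8 and 109.2 CPM (median 28.1) in 2018 and between 12.9 and 38.4 CPM (median 19.2) before, a log2 difference of 0.91 (SE 0.24, edgeR adjusted p = 0.007513). These 2 of 40 members compare with 16.1% of 15790 genes called, 11.2% in that direction, so the share of members was below that of all genes. IDO1 was at a log2 difference of 1.19 (edgeR adjusted p = 0.05655) and RSAD2 at -1.07 (edgeR adjusted p = 0.05811), and neither passed. Among Yerkes animals alone 0 members passed, with 1.81 for XAF1 (edgeR adjusted p = 0.1075) and 0.89 for STAT2 (edgeR adjusted p = 0.1953). Without 462, 4 members passed, with IFI44 and IDO1 added, against 14.5% of all genes. Of 11 macrophage markers 10 were lower in 2018, as were 4 of 5 atrial genes (median log2 difference -2.03) and 3 of 10 neutrophil and monocyte genes, and their part was not tested.

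The members were then set against genes that mark immune cells. Leukocyte genes went weakly with the shared level. Pearson's r with the level of 12 leukocyte genes was 0.23 over 38 animals (Spearman's rho 0.39) and 0.36 without 4x0043 and 529, the animals with the most extreme leukocyte levels. It was 0.03 among the 17 animals of the earlier extraction and 0.44 among the 21 of 2018, and this difference was not tested. By cell type, r was 0.26 for macrophage genes, 0.22 for T and NK cell genes, 0.17 for neutrophil and monocyte genes and -0.03 for B and plasma cell genes. The hearts of highest shared level were not those of highest leukocyte level: 462 was at 0.02 and 570 at -0.99 on the leukocyte list, whose range was -1.37 to 2.49.

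Plasmacytoid dendritic cells are the strongest producers of type I interferon. The 4 genes of their list of 6 found in the table had r = 0.40 with the shared level (rho 0.59, 0.55 without 4x0519 and 537), at 0.11 in the earlier extraction and 0.73 in 2018. The defining markers were almost silent, however, with CLEC4C at 0 in 36 of 38 animals and LILRA4 at 0 in 18 animals. Each gene has the same weight in the level of that list, so these sparse values enter it in full. GZMB and TCF4 are expressed by other cells too.

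In edgeR, with extraction year as a covariate, 1 of 40 members rose with the leukocyte level, against 5.76% of 16678 genes called and 5.24% that rose. This was GBP2, with a slope of 0.63 log2 units per unit of leukocyte level (SE 0.19, edgeR adjusted p = 0.03289). UBE2L6 had a slope of 0.43 (edgeR adjusted p = 0.05692) and did not pass, although it did in several alternatives. The slopes of 35 members were above 0, with a median of 0.20 against -0.02 over all genes. ISG15 had a slope of 0.02 (SE 0.36) and IFIT1 of -0.22 (SE 0.24). In the earlier extraction alone 0 members passed, with a median slope of -0.04 and 1 member at an unadjusted p under 0.05. In 2018 alone 1 passed, IFIH1, against 3.64% of 16687 genes, with a median slope of 0.54. There 19 members had an unadjusted p under 0.05, and the share of all genes at that threshold was not counted. Over 38 animals that share was 20%.

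Slopes on endothelial and cardiomyocyte genes were added after the values had been seen. With the level of 7 endothelial genes the shared level had r = 0.43 (rho 0.46, 0.40 without Little_R and 537), at 0.02 in the earlier extraction and 0.65 in 2018. With 10 cardiomyocyte genes r was -0.32 (rho -0.39, -0.26 without Little_R and 537), at -0.16 in the earlier extraction and -0.40 in 2018.

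With the endothelial level 23 of 40 members rose and 0 fell, against 23.8% of 16678 genes that rose and 44.8% called in either direction. The slope was 0.95 log2 units per unit for BST2 (edgeR adjusted p = 1.841e-06), 1.09 for XAF1, 0.67 for IFITM3 and 0.61 for STAT2. Of the named interferon responders, IFI27 (0.73), IDO1 (0.83) and IFI44L (0.57) rose, whereas ISG15 had a slope of 0.60 (SE 0.36), OAS1 of 0.36 (SE 0.24) and IFIT1 of -0.43 (SE 0.27), and these 3 did not pass. Without 537 and Little_R 20 members rose, against 18.7% of 16574 genes called in either direction, with 1923 genes that rose. Most fitted slopes were above 0 in 2018 and below 0 in the earlier extraction. In 2018 alone 28 rose, against 48.1% of 16363 genes called in either direction, with 3849 genes that rose. There 38 slopes were above 0, with a median of 0.70. In the earlier extraction alone 5 slopes were above 0, with a median of -0.19, and 0 members passed among 13 genes called, with 0 members at an unadjusted p under 0.05. The difference between the extractions was not tested.

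With the cardiomyocyte level 17 members fell and 1 rose, against 29.2% of 16910 genes that fell, 25.6% that rose and 54.8% called in all. IFITM2 had a slope of -0.97 (edgeR adjusted p = 1.173e-08), IFITM3 of -0.78, BST2 of -0.88, IFITM1 of -0.71 and GBP2 of -1.06. IFIT1 was the member that rose, by 0.69. Without 537 and Little_R it had a slope of 0.65 (edgeR adjusted p = 0.1055), while 17 members fell, against 41.4% of all genes called in either direction. ISG15 (-0.20, SE 0.36) and OAS1 (-0.08, SE 0.25) did not pass. In the earlier extraction alone 0 members passed among 281 genes called, with a median slope of -0.18 and 1 member at an unadjusted p under 0.05. The endothelial and cardiomyocyte genes run against each other in these hearts, with 8 of 10 cardiomyocyte genes lower where the endothelial level was higher, so that their slopes are not separate results.

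**Figure D5:**
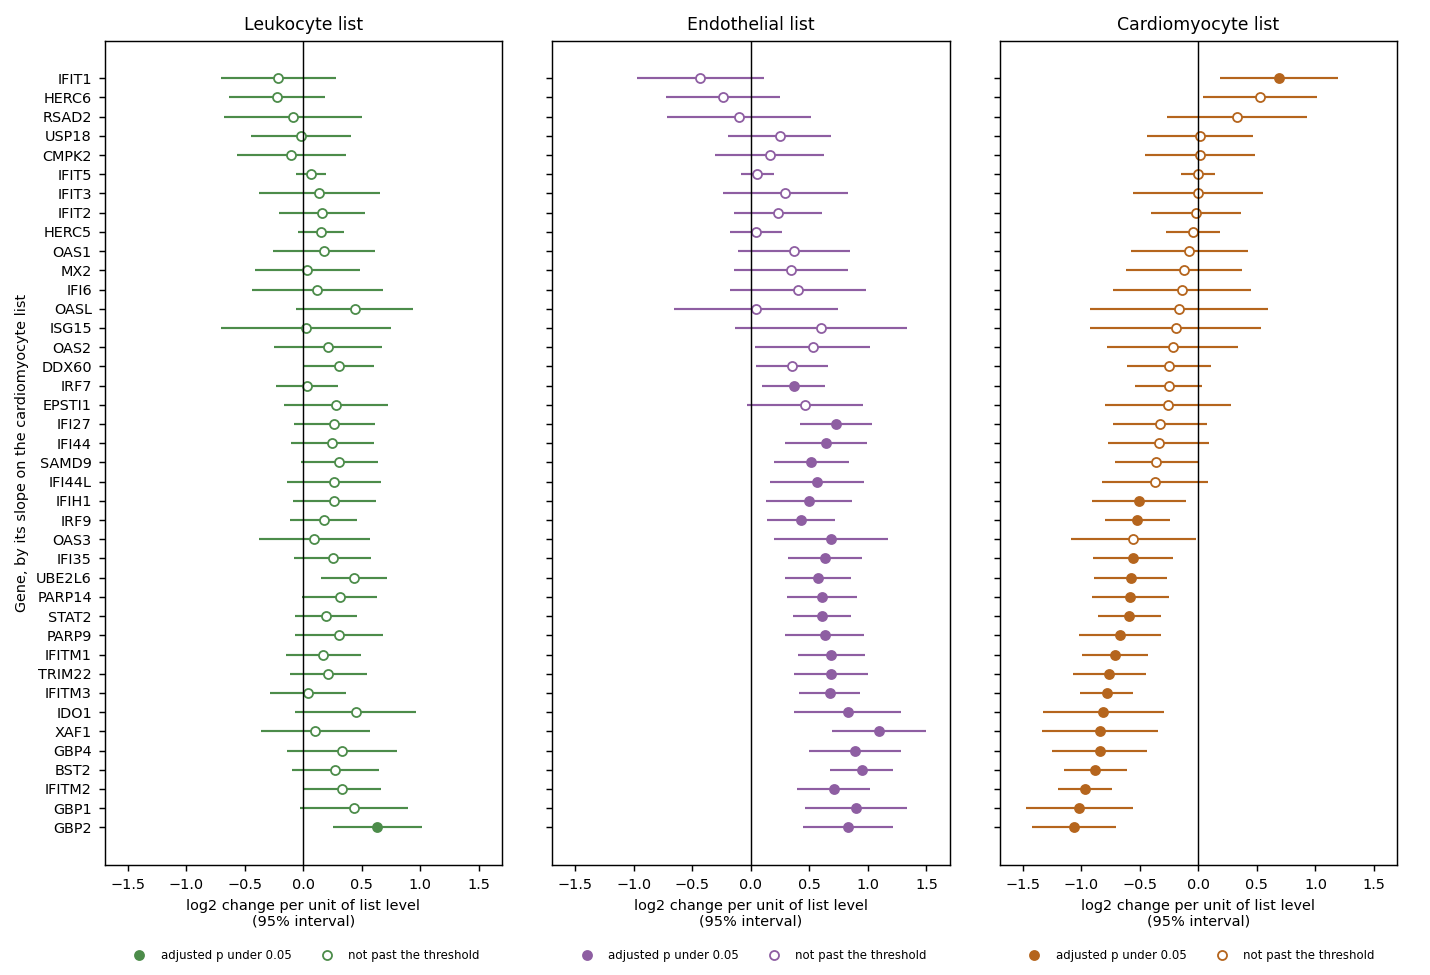
Slope of each of the 40 members (log2 units per unit of list level) on the leukocyte, endothelial and cardiomyocyte levels over 38 animals with extraction year as a covariate. Filled points have an adjusted p under 0.05: 1 member on the leukocyte level, 23 on the endothelial level and 18 on the cardiomyocyte level.

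The other genes of the pathway came from lists of 72 genes, 70 of which had a row. Several of the interferons were barely found. Of the 8 genes of their list with a row, 4 passed the filter on low counts in the leukocyte fit. IFNB1, IFNE and IFNK were at 0 in 33 of 38 animals each and IFNL1 at 0 in 36. IFNG, interferon gamma, was at 0 in 12 animals and had its highest value, 2.23 CPM, in 529. The shared level had r = 0.82 with 23 other induced effectors, 0.68 with 7 induced chemokine and cytokine genes, 0.66 with the transcription and feedback list, 0.64 with sensors and adaptors and 0.39 with receptors and kinases. With the 8 genes of the interferon list it was 0.37 (rho 0.41, 0.55 without Little_R and 529). The sparse interferons have the same weight as the others in that list.

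For the virus note, 0 of 64 pathway genes tested passed by edgeR, and 0 passed by DESeq2 and limma-voom, which called no gene. At an unadjusted p under 0.05 were 10, all lower in the positive animals, against 2.14% of all genes in that direction, led in size by IL6 (-3.84 on the log2 scale), CCL2 (-3.05), CGAS (-2.69), SOCS3 (-2.57) and CXCL10 (-2.44). The median of the pathway genes was -0.32. A few hearts with no note stood high on pathway lists. On the transcription and feedback list 537 was at 1.397, Little_R at 1.3355, 529 at 0.8806 and 558 at 0.8744. The median of the animals with no note was -0.2892 there, and the highest positive animal was at 0.4537. The part of these hearts in the lower pathway genes was not tested. IL6 and CCL2 are inflammatory messengers, CGAS senses DNA, SOCS3 inhibits cytokine signals and CXCL10 attracts T cells.

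With the leukocyte level 8 of 66 pathway genes rose and 0 fell, against 5.24% of 16678 genes that rose and 0.522% that fell. The 5 of smallest p included CCL5 (slope 1.49, edgeR adjusted p = 3.505e-09), a chemokine of T cells, and IFNG (1.87, edgeR adjusted p = 3.025e-08). The others that rose were ZBP1 (1.34), IRF8 (1.004), CXCL9 (1.49), APOBEC3G (0.86), PSMB9 (0.57) and IKBKE (0.49). IFNG and CCL5 are made by T and NK cells, and CXCL9 is induced by interferon gamma. In the other fits, CCL5 was higher in SNPRC than Yerkes in the earlier extraction (log2 difference 2.62, edgeR adjusted p = 0.04562), and 6 of 64 pathway genes were higher and 3 lower in 2018 than before, shares no larger than the 11.2% and 4.82% of all genes.

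Of 14102 genes outside the members, those most like the shared level after centring within year were named by Pearson's r over 38 animals. They were an unnamed gene ENSPTRG00000051595 (0.90), PARP12 (0.90), DHX58 (0.88), LGALS9 (0.86), RIGI (0.85), HELZ2 (0.83), SLC15A3 (0.83), DTX3L (0.83, 1 of 2 identifiers with that symbol), PARP10 (0.83) and an unnamed gene ENSPTRG00000048580 (0.81). RIGI and DHX58 belong to the same family of RNA sensors as IFIH1, and DTX3L is the partner of PARP9. The r of PARP12 was 0.89 in the earlier extraction and 0.91 in 2018.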

How the data were processed

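Reads of polyadenylated heart RNA were aligned by the authors with STAR 2.6.1b to the chimpanzee genome, and the deposited gene table holds the count of reads per gene that STAR returned, without normalization. The authors also deposited a standardized score for 13545 genes in 37 animals, made from log CPM, which served as an alternative only. The library kit does not mark strand, so overlapping antisense genes cannot be told apart. Human samples and 1 further chimpanzee, 52 per-sample columns in all, could not be tied to samples of the series, so human orthologs were not analysed here.

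Counts were scaled by TMM and given as CPM, with a pseudocount of 0.5 for log2 values. Differences were tested with edgeR 4.0.16 (filterByExpr, quasi-likelihood test, Benjamini-Hochberg over all genes, threshold 0.05), with DESeq2 1.42.0 and limma 3.58.1 (voom) as alternatives in R 4.3.3. The p-values measure the spread between animals, some of which are related, and kinship was not modelled. List levels are means of standardized log2 CPM and hold no member. Overdispersion was fitted by maximum likelihood per gene, checked against MASS 7.3.60.0.1, with a LOESS trend of degree 1 and span 0.75. Fits were tested on simulated data. Figures used Python 3.11.15, matplotlib 3.10.9, numpy 2.4.6 and pandas 2.3.3, and input was read with data.table, version 1.17.8.

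Members, lists and tests were chosen with earlier results of these data known. Every member is given. Named with tests are those past the threshold in the virus, center, interaction or year fit, the 5 of highest and the 5 of lowest dispersion, ISG15, IFI44L, IFIT1, OAS1, IFI27 and IDO1, pathway genes past the threshold in the virus or leukocyte fit (the 5 of smallest p), and the 10 non-members most like the shared level. Others were named after their values were seen. Alternatives were other scaling, filters, tools, covariates, lists and sets of animals. Those without 462, without 4x0043 and 529 or without the 4 highest animals, and the endothelial and cardiomyocyte slopes, were chosen after seeing the data.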

Additional observations from a re-analysis of the deposited data

Results flagged for a closer look

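Single animals stood apart from the rest of their group for 5 of 54 values tested by Dixon's ratio of gap to range on the log2 scale. The values were of chosen members and of the shared level. Such a test flags chance gaps in about 5% of groups. That rate does not hold here, since the members chosen include those of highest and of lowest dispersion in these same animals. Of the 5 flagged, 4 were values of 462 among the 9 Yerkes animals of the earlier extraction. They come from 1 heart and from members that vary together, so they are not separate results. IFIT1 in 462 was at 576.9 CPM against 85.7 CPM in the next animal (ratio 0.696), and USP18 was at 13.2 CPM against 1.95 CPM (0.715). IFI44L was at 43.03 CPM against 12.6 CPM (0.549), and IFI6 was at 719.7 CPM against 108.7 CPM (0.5). The fifth was GBP1 in 4X0354 among the 7 virus-positive animals, at 53.9 CPM against 14.3 CPM in the next (0.613).

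The animal exposed to HIV that tested negative, 4X0357, entered neither the comparison by virus note nor that by center, apart from 1 alternative that counted it with the animals of no note, and was among the 38 animals of the year and slope fits. It was above all 13 animals with no note of the same extraction for 4 of 40 members and below all of them for 0. IFIT1 was at 81.8 CPM there (highest of the others 64.3 CPM), MX2 at 64.5 CPM (63.5 CPM), RSAD2 at 3.76 CPM (2.73 CPM) and HERC6 at 12.2 CPM (9.83 CPM). It was above the median of the 13 for 38 members, and 2 of the 13 had a higher shared level. This is 1 animal, so no test was made.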

How the results depend on the processing

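Of 844 values recomputed for 51 results, 765 kept their direction and their side of the threshold or stayed within the allowed range, 14 fell below the threshold, 14 passed it, 45 moved and 6 reversed. For the virus note, 0 members and 0 genes were called in every alternative run. The median member difference ran from -0.26 without 4X0354 to 0.27 without 558, and was -0.05 with the leukocyte level as a covariate. The reversals were IFI44L (-0.1193, range to 0.6163 leaving out 1 animal) and IFI27 (-0.3628, range to 0.6599) without 4X0354, the ISG15 leukocyte slope with limma-voom (-0.1072) and in the earlier extraction alone (-0.4237), and the endothelial slopes of IFITM3 (-0.0976) and ISG15 (-0.9814) there.

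For center, DESeq2 called 1 member. The share of all genes called there was 4.96% with DESeq2, 0.0192% with limma-voom, 0.977% at 6 CPM, 0% with sex or RIN and 0.0493% with leukocyte level as a covariate, and 0% to 1.72% leaving out 1 animal. The interaction had 0.0241% with DESeq2. For year, 4 members were called with DESeq2 (19.7% of genes) and 4 without 462 (14.5% of genes). Among Yerkes animals alone it was 0 members and 2.08% of genes.

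For the leukocyte slope, members called were 2 with DESeq2 or its size factors, 2 without mitochondrial genes, 2 without 462, 2 without 4x0043 and 529, 3 without 537 and Little_R, and 0 in the earlier extraction alone or on the T and NK or the neutrophil and monocyte list. Genes called were 5.32% at 6 CPM, 3.64% in 2018 alone, 2.96% in the earlier extraction alone, 0.732% on the macrophage list, 2.28% on the neutrophil and monocyte list and 3.42% without 4x0043 and 529. In the earlier extraction alone, 0 members were called on the cardiomyocyte level (1.73% of genes) and 0 on the endothelial level (0.0815%), and without 537 and Little_R the latter had 18.7%. The cause of these changes was not tested.

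The shared level kept 462 as its highest animal with total counts, a pseudocount of 2, the deposited normalized matrix and without 537 and Little_R. The median r between members was 0.47 in the normalized matrix and 0.68 with total counts. The median dispersion of the members was 1.03 with total counts and 1.501 with the orthologous exon total as offset. The lowest counts were those of OASL, 8 in 623 and in Little_R, and of ISG15, 8 in 529. No paired analysis was possible because the animals carry no shared replicate numbers.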
